A study of Rattus norvegicus with 4 samples.

Results

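Class I antigen presentation and the immunoproteasome were examined in RTEC11, a conditionally immortalized line of rat tracheal epithelial cells, at 2 culture temperatures. The 10 genes chosen were RT1-CE5, B2m, Tap1, Tap2, Tapbp, Psmb8, Psmb9, Psmb10, Psme1 and Psme2, and their members on the array were the probe sets annotated to exactly 1 of these symbols. This gave 16 probe sets of 15866 that are not controls: 5 for RT1-CE5, 2 each for B2m and Tap1, and 1 for each of the other genes. RTEC11 came from transgenic rats whose large T antigen of simian virus 40 is temperature-sensitive, and all samples carry this transgene. Cells were kept for 3 days at 33 °C, where the antigen is active (permissive), or at 39 °C, where it is not (nonpermissive), with 2 arrays at each temperature. The heat of the culture and the loss of the antigen went together in this design, and their shares in any difference cannot be told apart. The line is a single one, the labels name no class I haplotype, and they do not say whether the 2 arrays of a group came from separate cultures. Each p-value below is therefore set against the spread of arrays that may differ only technically.

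Class I molecules show peptides from inside the cell to CD8 T cells. Peptides are cut by the proteasome, in which interferon can replace the standard catalytic subunits by Psmb8, Psmb9 and Psmb10 (the immunoproteasome) and add the PA28 cap made of Psme1 and Psme2. Tap1 and Tap2 form the pump that carries peptides into the endoplasmic reticulum, where tapasin (Tapbp) holds the empty class I molecule beside the pump. The molecule itself is a polymorphic heavy chain, such as that of RT1-CE5, paired with beta-2-microglobulin (B2m). Airway epithelial cells carry class I at a basal level and raise it during infection.

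The members were chosen on the intensity changes between 33 °C and 39 °C seen in these same arrays, so their values at 33 °C and 39 °C are given as a description and without a test. Intensities are in arbitrary units, and the authors had brought each array to a trimmed mean of 500. Changes are differences of log2(intensity + 16) at 39 °C minus 33 °C after quantile normalization, and an SD is over the 2 arrays of a group. In other scalings the intensities were left as deposited (deposited scale), each array was centred on its median (median centring) or arrays were matched on their poly-A spike-in controls (spike-in scaling). A probe set counts as dim below a mean log2 value of 6.60, an intensity of about 81.1. Of the 16 member probe sets 14 passed this limit in the mean of the 4 arrays. RT1-CE5 probe sets 1371209_at, 1388255_x_at and 1371210_s_at were dim at 33 °C and passed only through their level at 39 °C.

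By role, 4 of the 5 heavy chain probe sets and 1 of the 2 Tap1 probe sets stood far higher at 39 °C. Among the peptide supply genes Psmb10 was lower, Psmb9 was higher by a log2 change of 0.34, and the others differed little. The median log2 change was 1.89 over the 7 presentation probe sets, 0.68 over the 4 transport probe sets and 0.014 over the 5 peptide supply probe sets, beside -0.03 over all 9520 probe sets tested. The presentation median joins RT1-CE5 probe sets with those of B2m, which did not share their size of change, and is therefore a poor summary of either. A log2 rise of 1 or more was seen in 5 members, where 6.1% of all tested probe sets had one, and of 2 or more in 3 members (0.893% of all tested). In the limma fit over all probe sets 5 members were called higher and 1 lower at an adjusted p under 0.05, where 47.2% of all tested probe sets were called, 22.5% as higher and 24.7% as lower. In 12 of the 16 there was no overlap between the groups, with 10 higher and 2 lower, where 60% of all 15866 probe sets had none, 28.4% higher and 31.6% lower. Since the choice of members used this contrast, nothing is read from these counts.

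**Figure D1:**
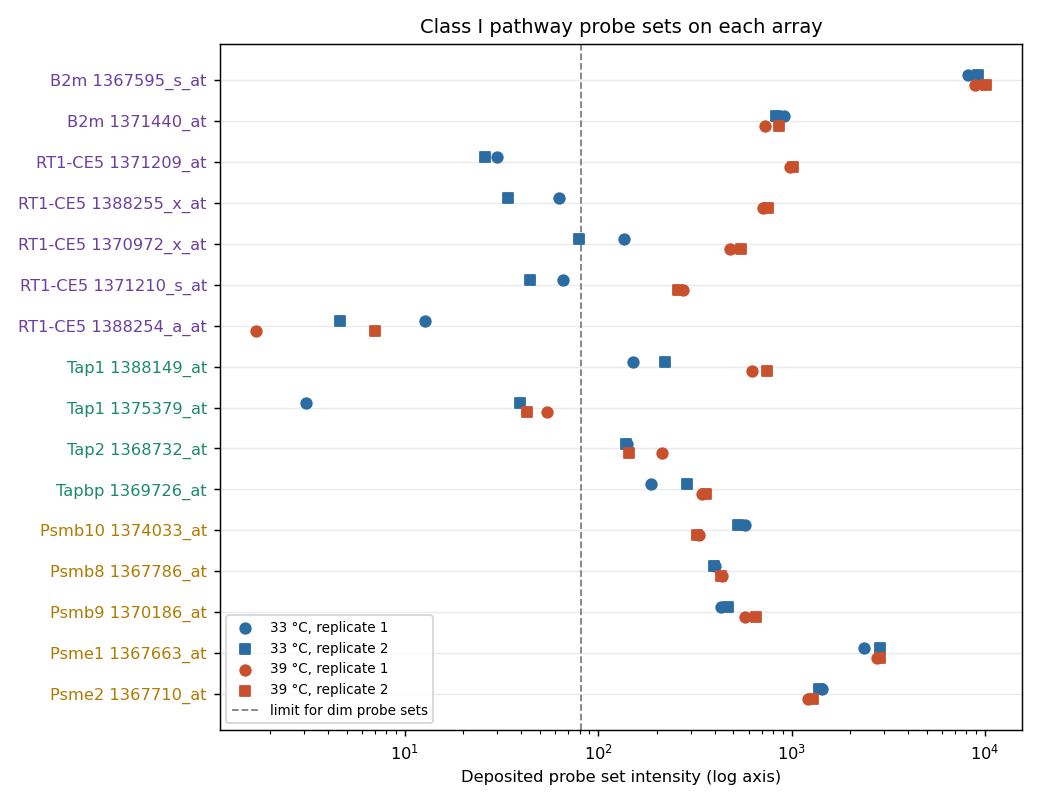
Deposited intensity (log axis) of each of the 16 member probe sets on each of the 4 arrays, blue for 33 °C and red for 39 °C, circles for replicate 1 and squares for replicate 2. Names are purple for presentation, green for transport and ochre for peptide supply, and the dashed line is the limit for dim probe sets. The 4 brighter RT1-CE5 probe sets and Tap1 1388149_at have both red points well to the right of both blue ones, while those of Psmb8 and B2m lie close together.

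Presentation was led by RT1-CE5, a heavy chain gene of the RT1-C/E region of the rat major histocompatibility complex. Probe set 1371209_at read 29.8 and 25.9 on the arrays at 33 °C and 980.6 and 1016.6 on those at 39 °C. Both arrays at 33 °C lay under the dim limit and both at 39 °C far above it, so the groups were widely apart. On the log2 scale its level went from 5.51 ± 0.10 to 9.97 ± 0.03 (SD, n = 2 each), a change of 4.46 or 22.1-fold, and only 4 of the 15866 probe sets had a larger rise. This fold rests on a level near background at 33 °C, and was 3.49 on the log2 scale with 64 added to each intensity and 5.02 with 1 added.

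The other RT1-CE5 probe sets differed in size and 1 in direction. Probe set 1388255_x_at read 62.6 and 34.1 at 33 °C against 708.8 and 751.1 at 39 °C, a log2 change of 3.49 (11.3-fold). For 1370972_x_at the intensities were 135.1 and 79.8 at 33 °C and 479.7 and 548.3 at 39 °C, a change of 2.03 (4.07-fold). Both of these end in _x_at, the mark of probes that may bind transcripts of other genes. Probe set 1371210_s_at, whose ending marks probes shared by several transcripts, read 65.5 and 44.2 against 275.2 and 258.1, a change of 1.89 (3.71-fold). In each of these 3 probe sets both arrays at 39 °C lay above both arrays at 33 °C. The fifth, 1388254_a_at, read 12.7 and 4.6 at 33 °C and 1.7 and 7.0 at 39 °C, all far under the dim limit with overlapping groups, and had no measurable level at either temperature. It has the same annotated source sequence as 1371209_at and 1388255_x_at, 3 probe sets in all, so readings made for 1 source sequence ranged from a log2 change of -0.32 to 4.46. Leaving out 1 array moved the changes of the 4 brighter probe sets to between 1.66 and 4.53 and turned none of them.

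Class I heavy chains are so alike that a probe set can detect several of them, and the annotation of these probe sets to RT1-CE5 is that of the platform. The values of the other RT1 probe sets therefore bear on which transcripts were seen. Beside RT1-CE5 and outside the class II genes, 15 probe sets carried a single RT1 symbol, for 11 genes. Of the 8 that were not dim, 1 was called higher and 1 lower (limma). RT1-M3-1, a class I-like gene of the RT1-M region, rose by 0.97 ± 0.22 (SE) with an adjusted p of 0.00345 by limma. Its intensities went from 79.9 and 84.0 to 183.5 and 210.8. Its call was lost without nonpermissive replicate 2 (0.85), and it was not tested with the dim limit at the 60th percentile. RT1-A3 1371213_at, a gene of the RT1-A region that holds the classical class I genes, fell by 0.59 ± 0.22 (SE, adjusted p 0.0411 by limma), from 410.4 and 311.2 to 316.9 and 200.3. This call was lost with the intensities as deposited (-0.48), with no dim limit, with no intensity trend, and without permissive replicate 1 (-0.39) or nonpermissive replicate 2 (-0.27).

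The brightest of the other RT1 probe sets, chosen after their values were seen, showed no change of the size found for RT1-CE5. RT1-CE12 1388236_x_at read 1708.6 and 1236.4 at 33 °C and 1298.3 and 1049.1 at 39 °C, with overlapping groups and a log2 change of -0.31 (limma, adjusted p 0.111), which was called lower with median centring (-0.46), with spike-in scaling (-0.69) and without permissive replicate 2 (-0.53). RT1-CE16 1370463_x_at read 806.2 and 728.7 against 896.6 and 908.5, a change of 0.20 (limma, adjusted p 0.168) that was -0.15 with spike-in scaling. RT1-CE10 1388203_x_at read 355.5 and 415.3 against 474.3 and 605.7, a change of 0.37 (limma, adjusted p 0.0656), which was called higher on the deposited scale (0.46) and without permissive replicate 2 (0.48) or nonpermissive replicate 1 (0.55). All 3 end in _x_at and can themselves bind related transcripts. A further probe set that the annotation assigns to 5 RT1 symbols at once, RT1-CE5 among them, was left out of the members by the rule. It read 243.4 and 229.2 at 33 °C and 170.2 and 187.0 at 39 °C, lower in both arrays. Its log2 change was -0.52 (limma, adjusted p 0.0289). This call was lost on the deposited scale (-0.38), with no dim limit, and without permissive replicate 1 or either nonpermissive array. With the dim limit at the 60th percentile this probe set was not tested. The probe sets thus do not show 1 common change of RT1 class I signal, and which transcripts gave the rise seen by 4 RT1-CE5 probe sets was not tested.

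**Figure D2:**
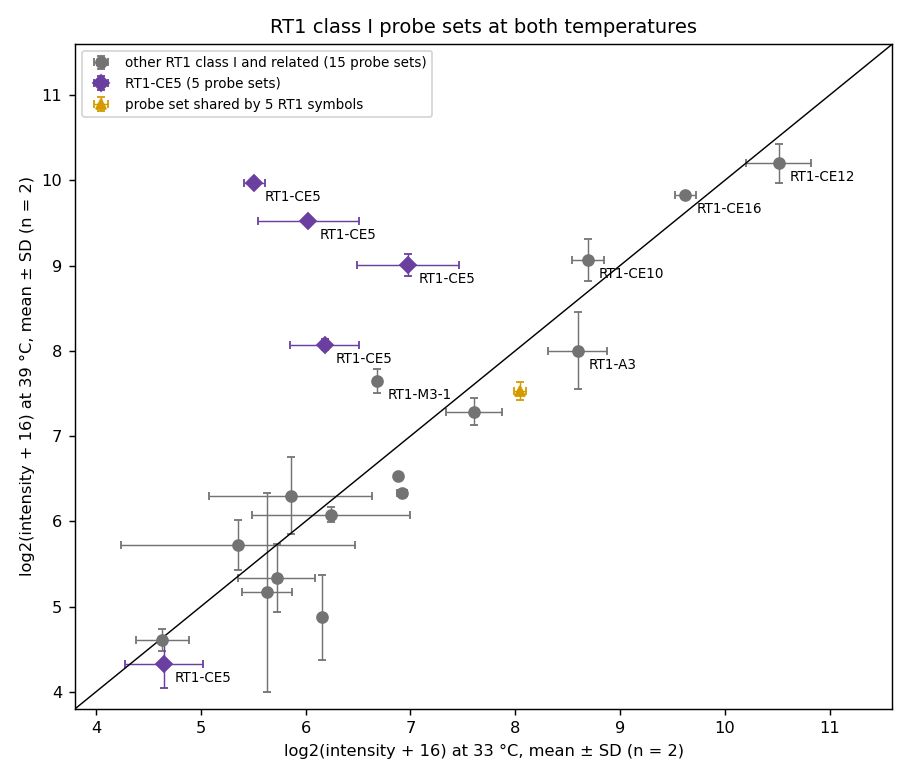
Mean log2(intensity + 16) at 33 °C (x axis) and 39 °C (y axis) of the probe sets of RT1-CE5, of the 15 other RT1 class I and related probe sets and of the probe set shared by 5 RT1 symbols. Bars are the SD of 2 arrays and the diagonal marks equal levels. Of RT1-CE5, 4 probe sets lie 1.89 to 4.46 above the diagonal, while RT1-CE12, RT1-CE16 and RT1-CE10 lie within 0.37 of it.

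B2m, the light chain that every class I molecule needs, was measured by 2 probe sets. The brighter lay at percentile 98.8 of all probe sets at 33 °C and 99 at 39 °C, the other at 82.2 and 80.1. The brighter, 1367595_s_at, read 8150.5 and 9177.4 at 33 °C and 8816.7 and 10095.6 at 39 °C. On this scale the ranges overlap, since nonpermissive replicate 1 lay below permissive replicate 2, whereas after quantile normalization the groups were just apart. The level was 13.03 ± 0.13 at 33 °C and 13.24 ± 0.13 at 39 °C (SD, n = 2 each), a change of 0.21 that turned to -0.02 with median centring and -0.26 with spike-in scaling. The second probe set, 1371440_at, read 913.6 and 825.5 against 730.7 and 861.3, with overlapping groups and a change of -0.17. By limma after quantile normalization neither B2m probe set was called. With spike-in scaling both were called lower, the second at -0.51. The brighter was called higher with a block for the replicate number, and its change was 0.31 without permissive replicate 2. Within each array, the log2 ratio of RT1-CE5 1371209_at to B2m 1367595_s_at went from -7.36 and -7.68 at 33 °C to -3.19 and -3.34 at 39 °C. Their changes differed by 4.25, or by 3.28 with 64 added to each intensity and 4.81 with 1 added, since RT1-CE5 was near background at 33 °C.

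The promoters of the members were searched because genes of this pathway are known to share control elements. RefSeq promoter sequences of the GRCr8 assembly, 250 bases before to 50 after the start of a gene, were at hand for all 10 members. Searched on both strands were the interferon-stimulated response element (ISRE), a gamma-activated site (GAS), a kappaB site, the cyclic AMP response element (CRE), the CCAAT box and a heat shock element. The ISRE was spelled as GAAA and GAAA with any 2 bases between, and the GAS as TTC and GAA with any 3 bases between. The kappaB site was GGGA, any base, T, any 2 bases and CC, the CRE was TGACGT, and the heat shock element was GAA, TTC and GAA with any 2 bases at each gap. An ISRE match was found in 7 of 10 members, where 3.92% of all 33469 promoters hold one. A kappaB match was found in 4 of 10, against 3.91% of all promoters. CCAAT was found in 4 of 10 (37.5% of all) and GAS in 1 of 10 (8.87%), while CRE (7.94%) and the heat shock element (0.80%) were found in none. These are matches of letters in a window of the reference genome, and the binding of any factor was not measured.

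The promoters of the 2 presentation genes are shown because both encode parts of the same molecule and their signals differed in change. That of RT1-CE5 is the minus strand of chr20:3484041-3484340 and that of B2m the plus strand of chr3:129549080-129549379, with matches in capitals and all else in lower case.
RT1-CE5: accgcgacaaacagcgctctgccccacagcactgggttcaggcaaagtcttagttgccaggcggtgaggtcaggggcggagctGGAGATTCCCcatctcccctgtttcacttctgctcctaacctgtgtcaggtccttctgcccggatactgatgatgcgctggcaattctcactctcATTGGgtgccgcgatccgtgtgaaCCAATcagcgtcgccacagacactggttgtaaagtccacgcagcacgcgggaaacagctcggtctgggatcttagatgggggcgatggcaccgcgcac
B2m: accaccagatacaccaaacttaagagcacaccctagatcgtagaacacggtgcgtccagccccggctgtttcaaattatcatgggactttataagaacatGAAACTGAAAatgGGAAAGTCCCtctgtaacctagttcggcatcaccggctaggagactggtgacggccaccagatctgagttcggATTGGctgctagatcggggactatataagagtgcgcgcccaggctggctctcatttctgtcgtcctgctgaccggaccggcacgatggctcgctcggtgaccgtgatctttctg
In RT1-CE5 the capitals are a kappaB match that begins 167 bases before the start and CCAAT matches 72 and 48 bases before it, on opposite strands. No ISRE match of the spelling used here was found in this window, and looser spellings were not searched. In B2m they are an ISRE match 150 bases before the start, a kappaB match at 137 and a CCAAT match at 64.

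Transport differed between its parts. Tap1 encodes the first chain of the peptide pump, and its main probe set, 1388149_at, read 150.7 and 220.3 at 33 °C and 621.1 and 748.0 at 39 °C. Both arrays at 39 °C lay far above both at 33 °C. The log2 level went from 7.71 ± 0.34 to 9.42 ± 0.18 (SD, n = 2 each), a change of 1.71 or 3.27-fold, which stayed between 1.43 and 1.94 under all alternatives run. The second Tap1 probe set, 1375379_at, read 3.1 and 39.5 against 54.6 and 42.9, dim on all 4 arrays. Its change of 0.91 rested on the single value of 3.1 in permissive replicate 1 and was 0.14 without that array.

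Tap2, the partner chain without which the pump does not work, stayed near its level at 33 °C in 1 of the arrays at 39 °C. It read 140.6 and 139.6 at 33 °C and 212.6 and 143.6 at 39 °C, and after normalization the groups overlapped, with a change of 0.16 that was -0.10 without nonpermissive replicate 1. The log2 ratio of Tap1 1388149_at to Tap2 was 0.10 and 0.61 on the arrays at 33 °C and 1.52 and 2.29 on those at 39 °C, so the 2 chains of the pump differed in change by 1.55. Tapbp, tapasin, read 187.7 and 287.0 at 33 °C and 344.6 and 361.3 at 39 °C. The groups did not overlap, but the arrays at 33 °C were themselves far apart (SD 0.39). The change of 0.45 was 0.18 without permissive replicate 1 and 0.72 without permissive replicate 2. The limma fit did not call Tapbp, but it was called higher on the deposited scale (0.57) and with a block for the replicate number.

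Peptide supply held the member that was clearly lower. Psmb10, the immunoproteasome subunit that takes the place of Psmb7, read 574.9 and 526.7 at 33 °C and 331.3 and 324.3 at 39 °C. Both arrays at 39 °C lay below both at 33 °C. Its log2 level went from 9.18 ± 0.09 to 8.37 ± 0.02 (SD, n = 2 each), a change of -0.81 or 1.75-fold lower, within -1.10 and -0.72 under all alternatives run. Psmb9, which takes the place of Psmb6, lay on the other side, at 433.4 and 470.2 against 570.4 and 652.7. Its change was 0.34, with groups that did not overlap, and 0.04 with spike-in scaling. The limma fit did not call it, but on the deposited scale (0.42) it was called higher. The same call was made with the dim limit at the 60th percentile, with 1 probe set per gene and with the replicate block. Psmb8, which takes the place of Psmb5, was the steadiest member, at 400.5 and 394.9 against 437.5 and 430.9. After normalization its groups overlapped, with a change of 0.014, which was 0.12 on the deposited scale and -0.26 with spike-in scaling.

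The 2 chains of the PA28 cap, which opens the proteasome and favours peptides of the length class I binds, were bright and close to level. Psme1 read 2360.2 and 2849.3 at 33 °C and 2749.8 and 2843.3 at 39 °C, a change of 0.17 that was not called. Psme2 read 1435.6 and 1378.9 against 1212.4 and 1281.6, lower in both arrays at 39 °C, with a change of -0.18. With median centring (-0.32) and spike-in scaling (-0.55) Psme2 was called lower, and Psme1 was then also below 0 (-0.04 and -0.27) without a call. The opposite signs of the 2 chains were thus seen on the quantile-normalized and deposited scales and not on the other two. Among the 3 catalytic subunits the changes were thus 0.34, 0.014 and -0.81.

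Psmb9 and Tap1 are neighbours in the class II region of chromosome 20, in the order Tap2, Psmb8, Tap1, Psmb9, and are transcribed in opposite directions, away from each other. Their promoters and that of Psmb10 are shown because the neighbours differed in the size of change and Psmb10 was the member that was lower. They are the minus strand of chr20:4668494-4668793 for Tap1, the plus strand of chr20:4668750-4669049 for Psmb9, which shares 44 bases with it, and the minus strand of chr19:50743243-50743542 for Psmb10.
Tap1: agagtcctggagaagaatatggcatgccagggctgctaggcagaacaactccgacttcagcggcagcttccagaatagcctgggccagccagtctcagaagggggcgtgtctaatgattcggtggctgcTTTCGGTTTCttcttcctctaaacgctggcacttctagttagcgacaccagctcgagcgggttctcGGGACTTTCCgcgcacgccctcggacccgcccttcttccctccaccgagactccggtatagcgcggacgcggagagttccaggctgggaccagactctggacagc
Psmb9: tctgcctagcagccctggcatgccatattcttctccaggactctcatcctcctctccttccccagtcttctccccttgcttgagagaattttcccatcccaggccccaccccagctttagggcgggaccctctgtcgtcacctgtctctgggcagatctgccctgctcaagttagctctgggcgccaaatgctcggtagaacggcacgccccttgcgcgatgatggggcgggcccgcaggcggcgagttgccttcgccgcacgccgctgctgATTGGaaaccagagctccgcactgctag
Psmb10: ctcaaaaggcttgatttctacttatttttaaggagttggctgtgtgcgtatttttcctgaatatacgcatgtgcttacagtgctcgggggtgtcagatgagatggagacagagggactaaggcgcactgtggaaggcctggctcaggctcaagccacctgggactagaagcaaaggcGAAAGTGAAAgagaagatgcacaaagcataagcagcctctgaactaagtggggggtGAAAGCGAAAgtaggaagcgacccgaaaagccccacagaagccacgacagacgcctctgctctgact
In Tap1 the capitals mark an ISRE match 121 bases before the start and a kappaB match at 55, neither of which lies in the 44 shared bases. In the Psmb9 window the only match is CCAAT, 22 bases after the start. Both Tap1 matches lie between the starts of Tap1 and Psmb9, further before the Psmb9 start than its window reaches. Psmb10 holds 2 ISRE matches, 73 and 17 bases before the start. The members with an ISRE match were Tap1, Psmb10, B2m, Tap2, Tapbp, Psmb8 and Psme2. Of these the main Tap1 probe set was higher at 39 °C and Psmb10 was lower, and the others changed less. A link between matches and changes was not tested. The log2 ratio of Psmb9 to Tap1 1388149_at was 1.40 and 1.01 on the arrays at 33 °C and -0.13 and -0.20 on those at 39 °C, a difference in change of -1.37.

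**Figure D3:**
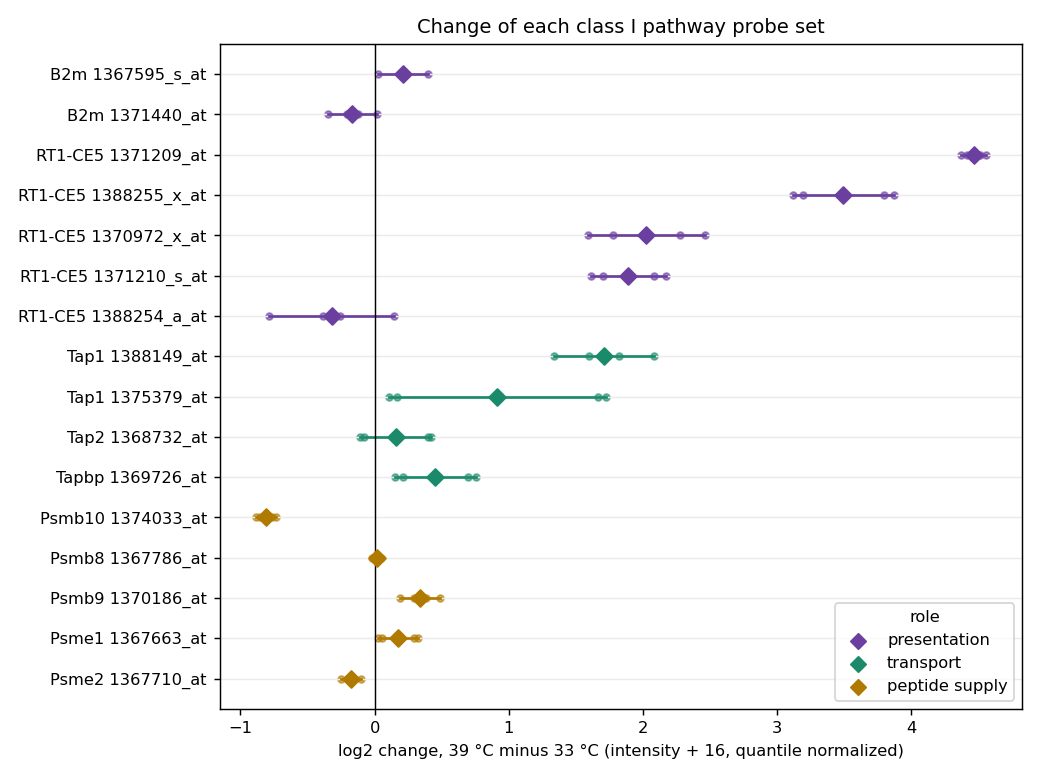
Log2 change at 39 °C minus 33 °C of each member probe set, after quantile normalization. Diamonds are the difference of group means, small points the 4 differences between single arrays joined by a line, and colours the roles. The 4 brighter RT1-CE5 probe sets and Tap1 1388149_at lie between 1.71 and 4.46, Psmb10 at -0.81, and most of the others near 0.

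The direction of the small changes depended on how the arrays were scaled. With spike-in scaling, which moved the median change of all tested probe sets to -0.35, 5 members were called higher and 4 lower. With median centring (median change -0.12) these counts were 5 and 2, and on the deposited scale (median change 0.03) they were 7 and 1. B2m 1367595_s_at, Psmb8 and Psme1 turned sign under median centring and spike-in scaling, and Tap2 under spike-in scaling. The 4 brighter RT1-CE5 probe sets, Tap1 1388149_at and Psmb10 kept their sign in all 4 scalings.

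**Figure D4:**
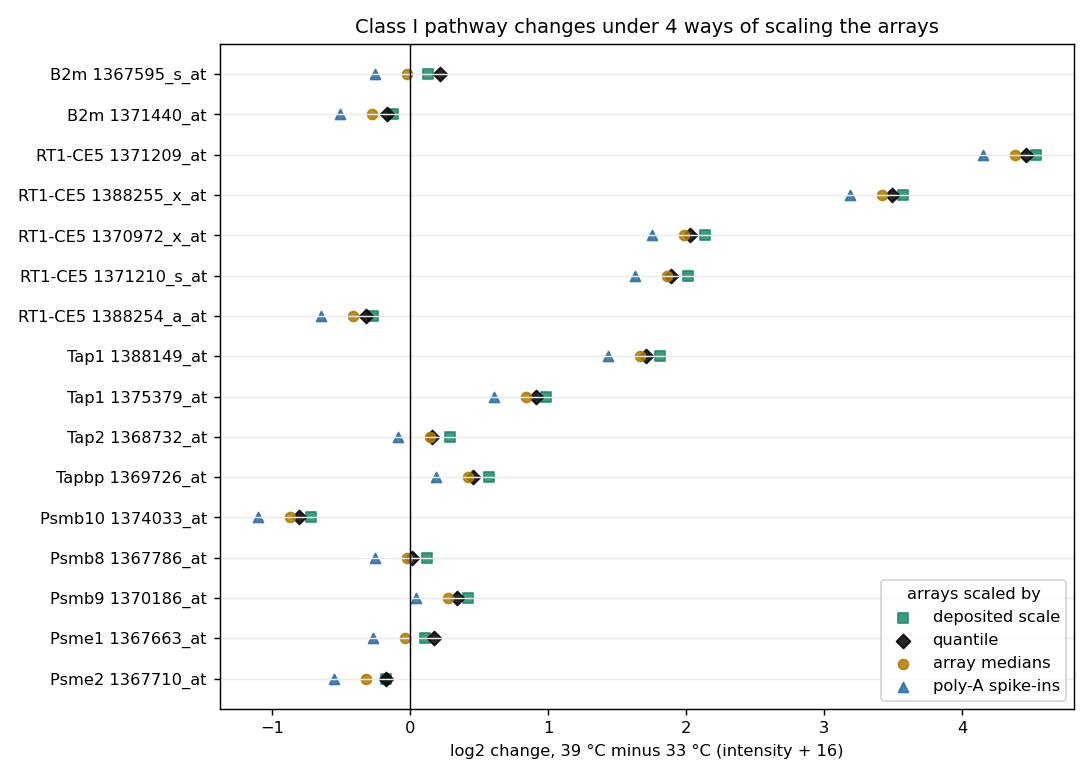
Log2 change at 39 °C minus 33 °C of each member probe set under 4 ways of scaling the arrays (squares deposited scale, diamonds quantile, circles array medians, triangles poly-A spike-in controls). RT1-CE5 1371209_at stays between 4.15 and 4.53 and Psmb10 between -1.10 and -0.72, while Psmb8 spans 0.

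Of the tested probe sets in each related list, 77.8% were called in either direction for the standard proteasome and 71.4% for cytosolic peptidases. It was 75% for other interferon-responsive genes and 75% for epithelial markers. The share was 31.2% for loading partners, 40% for regulators and 50% for interferon receptors and signalling, beside 47.2% of all tested probe sets.

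The standard subunits that Psmb8 and Psmb10 replace were lower at 39 °C. Of 9 probe sets for standard counterparts, caps and assembly factors, all of them tested, 6 fell and 1 rose (limma), with a median log2 change of -0.34. Psmb5, the standard partner of Psmb8, fell by 0.66 ± 0.09 (SE, adjusted p 0.000114 by limma), from 5832.9 and 6201.2 to 3682.1 and 3334.7. Psmb7, the standard partner of Psmb10, fell by 0.77 ± 0.10 (SE, adjusted p 8.32e-05 by limma), from 8341.7 and 7668.8 to 4799.9 and 4001.5. Psmb8 therefore stood higher relative to Psmb5 at 39 °C: their log2 ratio was -3.71 and -3.81 at 33 °C and -3.15 and -3.02 at 39 °C, a difference in change of 0.67. The log2 ratio of Psmb10 to Psmb7 was -3.74 and -3.75 at 33 °C and -3.90 and -3.67 at 39 °C, groups that overlap. Psme4, which encodes another proteasome cap, had probe sets that disagreed, 1 that rose by 1.31 ± 0.16 (SE, adjusted p 5.92e-05 by limma) 1 that fell by 0.30 and another at -0.34 that was not called. Psmb6, the standard partner of Psmb9, and the nuclear cap gene Psme3 had no probe set with their symbol alone.

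Genes that trim and load peptides split as well. Of 7 cytosolic peptidases 3 rose and 2 fell (limma), among them the puromycin-sensitive aminopeptidase Npepps (0.60 ± 0.12, SE) and Nrdc (0.42 ± 0.11), while Thop1, which destroys peptides before they reach the pump, fell by 0.62 ± 0.13 and Prep by 0.47 ± 0.11. Spike-in scaling ended the Npepps and Nrdc calls (0.26 and 0.08), and the Nrdc call was also lost without nonpermissive replicate 2. Erap1, the aminopeptidase that trims peptides to their final length inside the endoplasmic reticulum, rose by 1.21 ± 0.11 (SE, adjusted p 8.69e-06 by limma), from 963.4 and 1163.3 to 2507.8 and 2374.5. Its second named probe set rose by 0.71 ± 0.10 (SE), and both were called in all 4 scalings. The general chaperones of class I folding changed little: calreticulin (Calr) was at -0.06, the 3 calnexin (Canx) probe sets at 0.0060, -0.09 and -0.17, and the brighter probe set of the oxidoreductase Pdia3 at 0.07, none called by limma after quantile normalization. Median centring called Calr (-0.29) and 2 Canx probe sets lower, and with spike-in scaling Calr (-0.53), all 3 Canx probe sets and this Pdia3 probe set (-0.40) were. Of the 16 tested probe sets for loading partners 3 rose and 2 fell, the latter both for the translocon subunit Sec61a1 (-0.69 and -0.58).

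Regulators of class I genes and the response to interferon were compared next. Irf1, a transcription factor that binds the ISRE and drives class I genes, rose by 0.89 ± 0.12 (SE, adjusted p 0.000132 by limma), from 378.1 and 383.1 to 730.5 and 787.8. Rfx5, a subunit of the factor that binds the X box of class I and class II promoters, rose by 0.76 ± 0.11 (SE, adjusted p 0.00023 by limma). Nfyc, a subunit of the factor that binds CCAAT, fell by 1.29 ± 0.15 (SE, adjusted p 4.20e-05 by limma) in its dimmer probe set. Its brighter probe set, named after its values were seen, fell by 0.45 ± 0.12 (SE, adjusted p 0.00898 by limma). Nfkb2 fell by 0.74 ± 0.17. Rela, the main activating subunit of NF-kB, rose by 0.42 ± 0.11 (SE, adjusted p 0.0105 by limma), a call lost with median centring (0.30), with spike-in scaling (0.07) and without permissive replicate 2 or nonpermissive replicate 2. Of the 20 tested probe sets for regulators 5 rose, 3 fell, all for Nfyc or Nfkb2, and 12 were not called. Nlrc5, the class I transactivator, had no probe set with its symbol alone.

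Of 12 tested probe sets for interferon receptors, their kinases and the phosphatases that restrain signalling, 5 were called lower and 1 higher (limma). The kinase Jak2 fell by 1.06 ± 0.15 (SE, adjusted p 0.00017 by limma). The dimmer probe set of the receptor chain Ifngr2 fell by 0.83 ± 0.27 (SE, adjusted p 0.0274 by limma). This Ifngr2 call was lost on the deposited scale (-0.69), with no dim limit, and without permissive replicate 1 or either nonpermissive array. With the dim limit at the 60th percentile this probe set was not tested. The brighter Ifngr2 probe set, named after its values were seen, fell by 0.68 ± 0.145 (SE, adjusted p 0.00258 by limma), from 416.8 and 427.5 to 301.3 and 261.3. The other falls, also named after their values were seen, were those of the phosphatase genes Ptpn2 (-0.63) and Ptpn11 (-0.50). Tyk2, a kinase of the type I receptor, rose by 0.59 ± 0.15, which spike-in scaling (0.33) and leaving out nonpermissive replicate 2 took from the calls. Of other genes known to respond to interferon, 10 of 16 tested probe sets rose and 2 fell (limma), and 8 were dim. The median log2 change was 0.75 over the tested ones and 0.38 over all 24. The guanylate-binding protein Gbp2, with 44.6 and 39.4 at 33 °C and 575.5 and 444.2 at 39 °C, rose by 3.07 ± 0.21 (SE, adjusted p 1.00e-06 by limma), and Ifitm3 by 1.35 ± 0.12. Gbp2 was dim at 33 °C and passed the dim limit only through its level at 39 °C, so its fold rests on a level near background. It was not tested with the limit at the 60th percentile. Rsad2, named after its values were seen, was likewise dim at 33 °C and passed only through its level at 39 °C. Both count among the 10 rises and in the median of the tested probe sets. The ubiquitin-conjugating enzyme gene Ube2l6 (-0.56) and the adhesion molecule Icam1 (-0.40) were the 2 that fell. Without nonpermissive replicate 2 neither was called, and the Icam1 call was also lost without permissive replicate 1 or nonpermissive replicate 1.

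**Figure D5:**
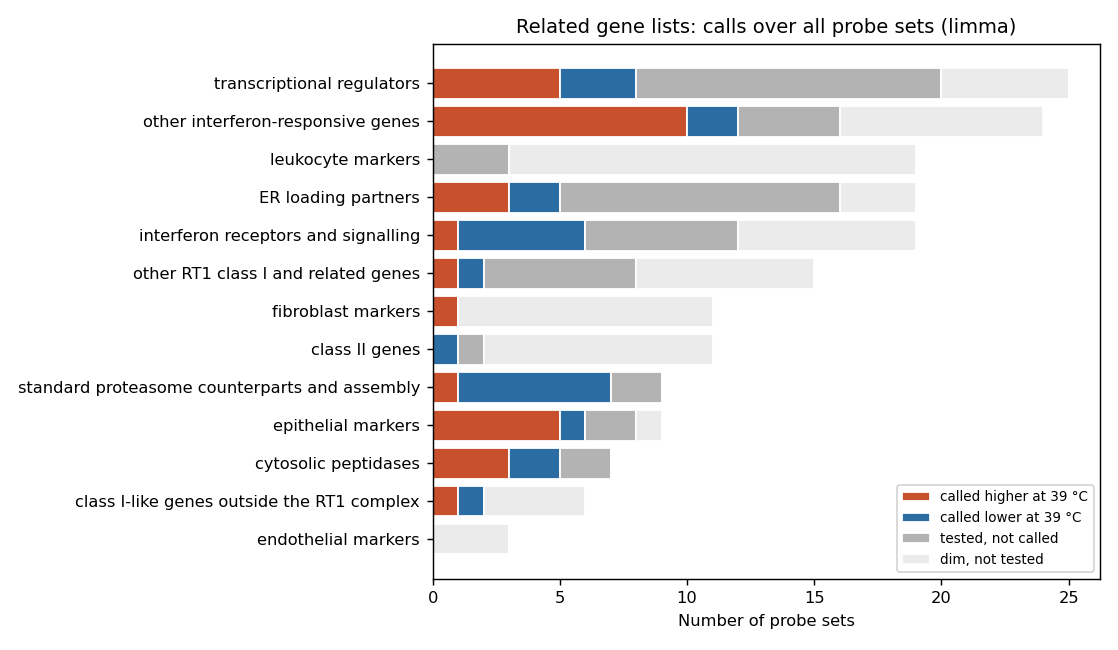
Number of probe sets in each of the 13 related lists that were called higher (red) or lower (blue) at 39 °C by limma, tested and not called (grey) or dim and not tested (light grey). Other interferon-responsive genes have 10 higher and 2 lower, standard proteasome counterparts and assembly 1 higher and 6 lower, and most leukocyte, fibroblast and endothelial markers are dim.

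Leukocytes carry class I and the immunoproteasome at high levels, so markers of other cell types were read beside the members. Of 19 leukocyte marker probe sets 16 were dim, among them both for Ptprc, the pan-leukocyte antigen, at 1.5 to 23.5. None of the other 3 was called by limma (1 at an unadjusted p under 0.05), and Coro1a had the largest change among them, -0.37. The summed intensity of all 19 was 1411.2 and 1437.8 at 33 °C and 1443.5 and 1252.7 at 39 °C. Of this sum Cd14, named after its values were seen, alone gave 803.9 and 823.1 at 33 °C and 636.4 and 750.4 at 39 °C. Its groups did not overlap, with a change of -0.27 (limma, adjusted p 0.0919). All 3 endothelial probe sets were dim, with sums of 13.6 and 36.2 against 120.1 and 29.7, and so were 10 of 11 fibroblast probe sets, with sums of 206.8 and 247.2 against 194.4 and 236.4. The remaining one, Col3a1, rose by 1.61 ± 0.26 (SE, adjusted p 0.000432 by limma), from 59.1 and 47.9, dim at 33 °C, to 263.5 and 172.8. Epithelial markers other than Krt5, which was dim, were bright. The whole list summed to 59441.4 and 63722.7 at 33 °C and 73442.2 and 72161.6 at 39 °C. Of 8 tested probe sets 5 were called higher (limma), led by Elf3 (1.70 ± 0.15, SE) and Dsp (1.13 ± 0.11). The 1 called lower was Krt18 (-0.36 ± 0.08). Of all tested probe sets 22.5% were called higher and 24.7% lower. In bulk RNA a change in the share of cells with a transcript and a change in its amount per cell cannot be told apart.

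The probe sets most like RT1-CE5 in pattern were sought over the 4 arrays, taking its probe set with the highest mean, 1370972_x_at, and the root mean square difference of log2 values after subtracting the mean at 33 °C. The 5 nearest single-gene probe sets were those of the adaptor gene Sh3kbp1 (0.13), the receptor gene Notch1 (0.14), the kinase gene Map3k20 (0.15), the serpin gene Serpinb7 (0.15) and the water channel gene Aqp5 (0.15, dim). Their log2 changes ranged from 1.92 to 2.12, beside 2.03 for the RT1-CE5 probe set. With 4 arrays in 2 groups the likeness rests mainly on the size of the change, and no probe set of a member gene was eligible.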

How the data were processed

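The series holds 1 Affymetrix rat array for each of 4 samples, grouped and numbered as the titles state. The deposited intensity values, 1 per probe set on a linear scale for 15923 probe sets, had been scaled by the authors, since the mean was 500 on each array after trimming 2% at each end. The sources used here do not name the software. Per the labels' protocols, biotin-labelled cRNA was made from total RNA. Median intensities were 152.7 to 174.3, and with 2 arrays a group the number of arrays sets the precision.

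The 57 control probe sets were left out, 16 was added, log2 was taken and the arrays were quantile normalized, because their medians differed by 0.17 (limit 0.1). Probe sets with a mean under the 40th percentile were not tested, which left 9520. These were fitted per probe set with limma 3.58.1 in R 4.3.3 (lmFit, eBayes with intensity trend), two-sided, with Benjamini-Hochberg adjustment over all tested and a threshold of 0.05. Replicate arrays correlated at 0.978 (33 °C) and 0.982 (39 °C), against 0.951 to 0.953 between temperatures. Symbols came from GEO's platform annotation (12783 probe sets with 1 symbol, 312 with several, 2771 with none). The procedure was tested on simulated data. Promoter searches and plots used Python 3.11.15 and matplotlib 3.10.9.

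The members and lists were chosen with earlier results of these data known. Named were all member probe sets, a set of 12 fixed pathway genes, the 5 nearest in pattern, and in each of 13 lists up to 2 called rises and 2 called falls with the largest change, or, with no call, the tested one that changed most. The alternatives were 3 other scalings, adding 1 or 64, other dim limits, 1 probe set per gene, no trend, a block for the replicate number, and fits without 1 array at a time. Leaving out probe sets ending in _x_at, _s_at or _a_at, and role medians over genes, were chosen after seeing the data, as were the ratios between genes.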

Additional observations from a re-analysis of the deposited data

How the results depend on the processing

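The 4 brighter RT1-CE5 probe sets, Tap1 1388149_at and Psmb10 kept their direction under every alternative run that gave them a value. The presentation median of 1.89 was 1.63 with spike-in scaling, 2.15 with 1 added, 1.39 with 64 added, 2.34 with 1 probe set per gene or as a median over genes, and 2.15 without probe sets ending in _x_at, _s_at or _a_at. The transport median of 0.68 was 1.13 with 1 added, 0.39 with 64 added, 0.40 with spike-in scaling and 0.45 with 1 probe set per gene, and ran from 0.18 to 1.21 when single arrays were left out. The peptide supply median of 0.014 was 0.11 on the deposited scale, -0.041 with median centring and -0.27 with spike-in scaling. Without single arrays it ran from -0.0033 to 0.03. The 2144 higher and 2350 lower calls became 1081 and 4371 with spike-in scaling. Calls over all related lists, 31 higher and 24 lower, became 19 and 50 with spike-in scaling, had 37 lower with median centring, and ran from 15 to 24 lower when single arrays were left out. The 5 members called higher became 2 with the dim limit at the 60th percentile, where no RT1-CE5 probe set was tested, 3 with 1 probe set per gene and 2 without probe sets ending in _x_at, _s_at or _a_at, where fewer probe sets were tested. They became 8 with the replicate block, and 5 to 8 when single arrays were left out, with 8 without permissive replicate 2. The member called lower became 2 with median centring and 4 with spike-in scaling. Higher calls made up 47.7% of all calls in the quantile-normalized fit, 53.8% on the deposited scale, 37.7% with median centring and 19.8% with spike-in scaling. The numbers in the titles were not shown to pair the samples (the deviations of same-numbered arrays correlated at 0.0068 over probe sets), and the replicate block gave 2317 higher and 2540 lower calls, with RT1-CE12 called lower and RT1-CE10 higher. Except where given here or in the report, the cause of a moved value was not tested. Signals near background limit the fold changes of RT1-CE5 and the second Tap1 probe set.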

Other observations

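Class II genes and class I relatives outside the RT1 complex were mostly dim. Of 11 class II probe sets 9 were dim in the mean of the 4 arrays. Among them were those of the invariant chain Cd74 and of the class II regulator Ciita. Cd74 read 99.6 and 92.9 at 33 °C, above the dim limit, and 41.5 and 47.3 at 39 °C, below it. Its log2 change was -1.02, with groups that did not overlap, and it was not tested. RT1-DMa, which helps load peptides on class II molecules, fell by 0.79 ± 0.13 (SE, adjusted p 0.000527 by limma), from 508.2 and 535.0 to 314.7 and 316.0. Among 6 relatives of class I, Fcgrt, the heavy chain of the neonatal Fc receptor that also pairs with B2m, rose by 0.71 ± 0.16 (SE, adjusted p 0.00306 by limma), a call lost with spike-in scaling (0.39). Procr, the endothelial protein C receptor, fell by 0.79 ± 0.25 (SE, adjusted p 0.0234 by limma). This call was lost on the deposited scale, with no dim limit, without intensity trend and without permissive replicate 2 or nonpermissive replicate 2. With the 60th percentile as limit Procr was not tested. The other 4, Hfe, Mr1, Cd1d1 and Azgp1, were dim.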
